A study of Homo sapiens with 6 samples.

Results

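The genes described here encode S100 proteins, a family of small calcium-binding proteins, measured in cells that the labels call HepG2, the name of an established line from a human liver tumour. They were the 10 rows of the count table, out of 27452, whose gene symbol is S100A2, S100A3, S100A4, S100A6, S100A10, S100A11, S100A13, S100A14, S100A16 or S100P. RNA sequencing was done on 3 libraries of cells with a STAT3 shRNA and 3 libraries of cells with a control (Ctrl) shRNA. An shRNA is a short hairpin RNA that the cell processes into a small RNA which lowers the transcript it matches, and STAT3 is a transcription factor switched on by cytokine receptors. All libraries carry the same line name, and the cells were grown in DMEM with serum and antibiotics. The labels number the libraries of each group from 1 to 3 without saying whether the numbers stand for separate cultures, separate clones or different hairpins. The p-values below therefore rest on library-to-library spread alone, part of which may be technical. Whatever else sets the knockdown and control lines apart cannot be told apart from the hairpin's action.

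An S100 protein is a dimer of chains that each carry a pair of EF-hand loops. Calcium entering these loops opens a hydrophobic cleft, and through it the dimer grips annexins, cytoskeletal proteins or enzymes. Some family members are also released from cells and act on receptors such as RAGE (the AGER gene) and TLR4. Most family genes lie together on the long arm of human chromosome 1, in a region that also holds many genes of the skin barrier. In epithelial tumours S100 transcripts are widely used as markers of invasion or differentiation.

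The total counts ran from 17694642 to 25862027 in the STAT3 shRNA libraries and from 17408543 to 20133064 in the control libraries. Levels are given as CPM, counts per 1000000 of the library size after TMM scaling. STAT3 itself measured 34.8, 35.8 and 36.2 CPM in knockdown libraries, against 262, 247 and 246 CPM in controls (log2 fold change -2.82 ± 0.0845, SE; edgeR adjusted p = 2.19e-07), so the STAT3 transcript followed the labels. Markers of the hepatocyte were nearly absent in both groups, which goes against the HepG2 label, since that line is known for making albumin and other liver plasma proteins. Of 17 such genes, 9 had a row in the table and 2 were tested, albumin (ALB) had at most 3 counts in any library, and the list summed to 6.05 to 8.94 CPM in the STAT3 shRNA libraries and 2.27 to 4.06 CPM in the control libraries. Of 5 epithelial markers 4 (EPCAM, KRT8, KRT18 and KRT19) rose. CDH1 lay under 1 CPM in every library and did not pass the test (log2 fold change 0.37 ± 0.452, SE; edgeR adjusted p = 0.618). The list summed to 4643 to 5085 CPM in STAT3 shRNA libraries, against 2813 to 3375 CPM in control libraries. Nearly all of it was KRT8 (means of 2882 and 1814 CPM in STAT3 shRNA and control libraries) and KRT18 (1747 and 1256 CPM). Of the squamous list 4 of 6 had a row, all under 1 CPM in every library, with sums up to 0.382 CPM in STAT3 shRNA libraries and up to 0.350 CPM in control libraries. Of 4 mesenchymal markers tested, COL1A1 fell and VIM, DCN and PDGFRB did not pass the test, with a median log2 fold change of 0.07. That list summed to 833 to 890 CPM in STAT3 shRNA libraries and 965 to 1012 CPM in control libraries, nearly all of it VIM (means of 834 and 928 CPM; log2 fold change -0.15), while DCN (0.30) and PDGFRB (0.33) had positive log2 fold changes. In STAT3 shRNA libraries most of the hepatocyte sum was HNF4A, a transcription factor. HNF4A rose to a mean of 6.58 CPM in STAT3 shRNA libraries, against 1.51 CPM in control libraries. The control sum, 3.25 CPM on average, was mostly HNF4A and the other tested gene of that list, TF (transferrin), at similar levels. TF averaged 0.806 CPM in STAT3 shRNA libraries and 1.59 CPM in control libraries and did not pass the test (log2 fold change -0.97 ± 0.518, SE; edgeR adjusted p = 0.239). In bulk RNA, fewer cells of a type and less RNA per cell cannot be told apart. The part of the epithelial and mesenchymal marker levels in the S100 values was not tested.

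Of 14999 genes tested with edgeR's quasi-likelihood test, 2627, or 17.5%, passed a false discovery rate (FDR) of 0.05 after Benjamini-Hochberg adjustment, 9.39% higher and 8.13% lower in STAT3 shRNA cells. Higher genes made up 53.6% of the calls, and 68.7% when libraries were scaled by their totals. All 10 S100 genes passed the filter on low counts. Among them 1 rose (S100A10), 1 fell (S100P) and 8 did not pass the test. A count of 2 in 10 lies near the 17.5% of all genes and is by itself no result about the family. The groups did not overlap for 5 of the 10 (S100A3, S100A4, S100A10, S100A16 and S100P), where 35.7% of all tested genes had no overlap. The median log2 fold change (STAT3 shRNA over control shRNA, as throughout) was -0.16 over the 10 genes and -0.01 over all tested genes. The summed level of the family was 1909, 2035 and 1878 CPM in the STAT3 shRNA libraries and 1748, 2012 and 2553 CPM in the control libraries, which overlap.

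**Figure D1:**
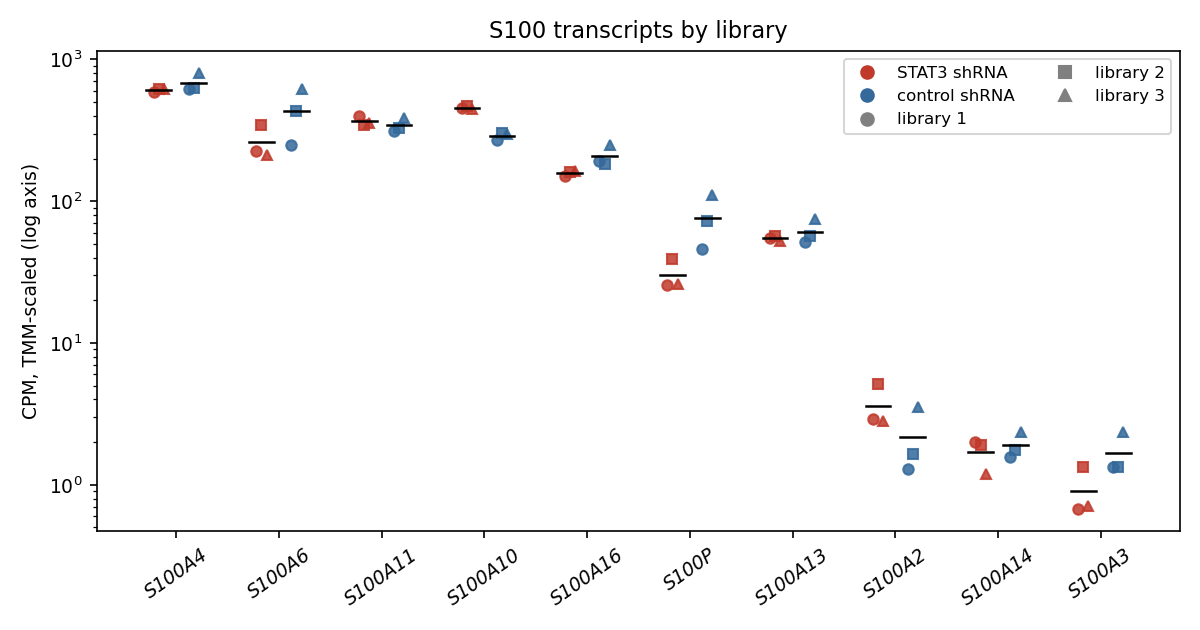
CPM (log axis) of each S100 gene in each library, STAT3 shRNA in red to the left of control shRNA in blue, with the library number given by the symbol and the group mean by a bar. S100A10 sits higher and S100P lower in all 3 STAT3 shRNA libraries, and control library 3 is the highest control library for 9 of the 10 genes.

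The spread between libraries of a group was itself uneven across the family. In the control group library 3 had the highest CPM for 9 of the 10 genes, all but S100A10, where that library was highest for 39.2% of all tested genes. In the STAT3 shRNA group library 2 was highest for 6 of the 10, against 37.6% of all tested genes. S100A2, S100A6 and S100P had the widest control groups, with 1.80-, 1.63- and 1.51-fold between the lowest and highest STAT3 shRNA library and 2.75-, 2.47- and 2.38-fold between the lowest and highest control library. S100A10 moved least in the control group, 1.13-fold, and 1.05-fold in the STAT3 shRNA group. S100A4 (1.05- and 1.30-fold in STAT3 shRNA and control libraries), S100A13 (1.08- and 1.45-fold) and S100A16 (1.08- and 1.36-fold) were tight among the STAT3 shRNA libraries and looser among the controls.

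The share of counts in ribosomal protein genes was also highest in these libraries, at 5.91%, 6.60% and 6.06% in STAT3 shRNA libraries 1, 2 and 3 and 6.36%, 7.29% and 8.56% in control libraries 1, 2 and 3. The share did not separate the groups (exact two-sided permutation p = 0.2, where 0.1 is the smallest that 3 against 3 libraries can give), and its part in the S100 values was not tested. The number of genes with a count (21307 to 22077 in STAT3 shRNA libraries and 20141 to 21066 in control libraries) and the share of counts in rows without an Ensembl identifier (0.828% to 0.837% and 0.709% to 0.754%) did separate the groups, each at that smallest p of 0.1, and their part was not tested either.

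**Figure D2:**
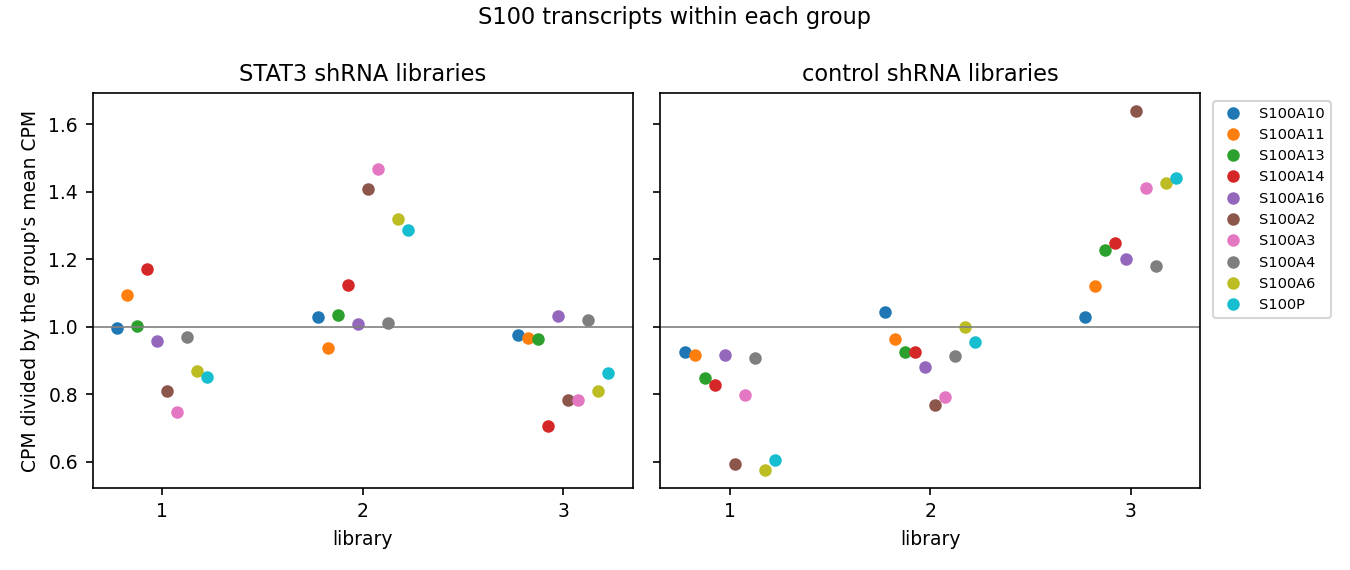
CPM of each S100 gene divided by the mean of its own group, for the 3 STAT3 shRNA libraries (left) and the 3 control libraries (right). S100A2, S100A3, S100A6 and S100P stand high in STAT3 shRNA library 2 and in control library 3, while S100A10 stays near 1 in all 6.

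S100A10, also called p11, is the family member whose loops no longer bind calcium and stay in the calcium-bound shape. It forms a tetramer with annexin A2 at the inner face of the plasma membrane and helps to bring channels to the surface and to bind plasminogen there. S100A10 (ENSG00000197747.9) measured 455, 470.1 and 446 CPM in STAT3 shRNA libraries, against 268, 303 and 298 CPM in the control libraries. Every STAT3 shRNA library was above every control library, and the values within each group lay close together. The rise was 1.58-fold, or 0.66 ± 0.0832 on the log2 scale (SE; edgeR adjusted p = 0.000705, 95% interval 0.47 to 0.85). Over 12 alternative fits the adjusted p ranged from 1.96e-10 to 0.00681, and all 12 called it. Its share of the summed family level was 23.6 ± 0.405% in STAT3 shRNA libraries and 14.02 ± 2.03% in control libraries (SD, n = 3 each).

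S100P, first found in placenta, is a calcium-binding dimer that binds and activates ezrin and, when released, acts on RAGE. S100P (ENSG00000163993.7), the only member outside chromosome 1, measured 25.9, 39.1 and 26.2 CPM in STAT3 shRNA libraries and 46.2, 72.9 and 109.9 CPM in the control libraries. The groups did not overlap, but the control libraries differed among themselves 2.38-fold from lowest to highest. The fall was 2.51-fold, a log2 fold change of -1.33 ± 0.327 (SE; edgeR adjusted p = 0.0343, 95% interval -2.11 to -0.55). The adjusted p passed the threshold no longer on dropping STAT3 shRNA library 1 (0.126), STAT3 shRNA library 3 (0.110), control library 2 (0.0818) or control library 3 (0.0644), nor with no filter on low counts (0.170), in a range of 0.0104 to 0.170 over the 12 alternatives. The direction held in all 12 alternatives, with log2 fold changes of -1.57 to -0.96.

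The promoters of the gene that rose, of the gene that fell and of S100A3, which alone carried the STAT-type motif, are shown to place the searched motifs. Each is the RefSeq window (GRCh38.p14) of 250 bases before to 50 after a gene start, printed 5′ to 3′ on the gene's own strand. Capitals mark matches to the palindrome that STAT dimers recognise, spelled TTCNNNGAA, the basal promoter element TATAAA, the Sp1-type element GGGCGG and the AP-1 type element TGANTCA. All were searched on both strands, and matches of different motifs did not overlap.
S100A10 (chr1:151993810-151994109, minus strand): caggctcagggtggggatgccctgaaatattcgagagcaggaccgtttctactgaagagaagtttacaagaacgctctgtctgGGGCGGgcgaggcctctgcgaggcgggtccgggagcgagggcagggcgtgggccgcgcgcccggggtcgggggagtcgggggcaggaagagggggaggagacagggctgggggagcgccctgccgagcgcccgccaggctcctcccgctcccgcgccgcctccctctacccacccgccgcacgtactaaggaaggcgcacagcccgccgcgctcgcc
S100P (chr4:6693628-6693927, plus strand): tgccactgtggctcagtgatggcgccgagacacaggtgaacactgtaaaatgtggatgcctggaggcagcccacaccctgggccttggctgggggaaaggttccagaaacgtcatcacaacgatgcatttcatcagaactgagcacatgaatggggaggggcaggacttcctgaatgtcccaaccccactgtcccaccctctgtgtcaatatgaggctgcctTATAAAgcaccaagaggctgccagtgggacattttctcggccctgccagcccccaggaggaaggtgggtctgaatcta
S100A3 (chr1:153549209-153549508, minus strand): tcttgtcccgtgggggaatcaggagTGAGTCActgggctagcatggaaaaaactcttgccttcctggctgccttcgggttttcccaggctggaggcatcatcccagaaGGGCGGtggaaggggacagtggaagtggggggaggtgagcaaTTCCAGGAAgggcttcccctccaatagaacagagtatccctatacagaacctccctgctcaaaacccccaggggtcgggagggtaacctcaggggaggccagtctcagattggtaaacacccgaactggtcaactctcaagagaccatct

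All 10 genes had at least 1 window, 14 in all. The TTCNNNGAA motif occurred in 1 of the 14, at position -100 of S100A3 as TTCCAGGAA, against 7.66% of 35116 windows over all genes. TATAAA occurred in 3 of the 14 (11.5% of all windows), at position -28 of S100P, at -31 of S100A4 and at -29 of a window of S100A13. GGGCGG occurred in 6 of the 14 (45.0% of all windows), among them those of S100A10 and S100A11 and the window of S100A6, which held 3 matches. TGANTCA occurred in 2 of the 14 (7.71% of all windows), those of S100A2 and S100A3. The windows of S100A10 and S100P, printed above, thus differed in these letters, GGGCGG in S100A10 and TATAAA in S100P, and neither held TTCNNNGAA. These matches describe letters in a window and say nothing of binding.

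S100A11, or calgizzarin, binds annexin A1 and is best known from keratinocytes, where it takes part in growth arrest. S100A11 (ENSG00000163191.6), the nearest neighbour of S100A10, measured 399.8, 343 and 354 CPM in STAT3 shRNA libraries and 314, 331 and 384 CPM in control libraries. The groups overlapped, and the log2 fold change was 0.09 ± 0.104 (SE; edgeR adjusted p = 0.588). Its 95% interval of -0.14 to 0.33 lay below the whole interval of S100A10. Pseudogene copies of S100A11 are annotated, so reads shared with them could have been split.

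S100A4, or metastasin, binds the heavy chain of non-muscle myosin and is used as a marker of migrating cells. It had the highest level of the family on the CPM scale in every library. Its values were 591, 616 and 621 CPM in STAT3 shRNA libraries and 622, 625 and 808 CPM in the control libraries. The highest STAT3 shRNA library lay just under the lowest control library. S100A4 (ENSG00000196154.12) had a log2 fold change of -0.17 ± 0.112 (SE; edgeR adjusted p = 0.338), with a 95% interval of -0.42 to 0.08. Without control library 3 the value was -0.03.

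S100A6, or calcyclin, binds the ubiquitin ligase adaptor CACYBP and is induced when resting cells re-enter the cycle. S100A6 (ENSG00000197956.10) varied more between libraries of a group than any other abundant member, with 226, 342 and 210.1 CPM in STAT3 shRNA libraries and 251, 436 and 620.5 CPM in the control libraries. The second STAT3 shRNA library lay above the first control library, so the groups overlapped. The log2 fold change was -0.75 ± 0.359 (SE; edgeR adjusted p = 0.219), with a 95% interval from -1.63 to 0.13. Without control library 3 it was -0.40, and without control library 1 it was -1.01 (adjusted p = 0.0660, range over the alternatives 0.0660 to 0.535). A gene annotated on the opposite strand shares exon bases with S100A6, and without a known strand setting its reads cannot be told apart.

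S100A16, a broadly expressed member with weak calcium binding, lay just outside the threshold. S100A16 (ENSG00000188643.11) had 151, 159 and 163 CPM in STAT3 shRNA libraries and 191, 184 and 249.8 CPM in the control libraries, with no overlap. The log2 fold change was -0.40 ± 0.122 (SE; edgeR adjusted p = 0.0529, 95% interval -0.67 to -0.12). Of the 12 alternatives 4 called it, among them DESeq2 (adjusted p = 0.0196) and the fit with the replicate number as a block (0.0482). The range of adjusted p over all 12 was 0.0149 to 0.192, and without control library 3 the log2 fold change was -0.24.

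S100A13 helps to release FGF1 and interleukin 1 alpha, which lack a signal peptide, from stressed cells. S100A13 (ENSG00000189171.14) measured 54.9, 56.8 and 52.7 CPM in STAT3 shRNA libraries and 51.9, 56.4 and 75.0 CPM in the control libraries. The groups overlapped. Its log2 fold change was -0.16 ± 0.137 (SE; edgeR adjusted p = 0.473), with a 95% interval of -0.47 to 0.15, and was 0.02 without control library 3. Both of its cargo genes in the partner list, FGF1 and IL1A, had few counts, at most 1 for FGF1 and 4 for IL1A in any library. S100A13 shares exon bases with S100A1 on the opposite strand, which had 8 to 23 counts per library, and with AL162258.1, a processed transcript on its own strand. Reads of the first overlap cannot be assigned without a known strand setting, and reads of the second not even with one.

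Low levels were seen for S100A2, S100A3 and S100A14. S100A2 is a nuclear family member of basal epithelia. It had 78, 104 and 52 counts in the STAT3 shRNA libraries and 22, 31 and 67 counts in the control libraries. In CPM these were 2.93, 5.11 and 2.84 against 1.28, 1.65 and 3.53. The third control library lay inside the range of the STAT3 shRNA libraries. The log2 fold change was 0.74 ± 0.396 (SE; edgeR adjusted p = 0.240, 95% interval -0.15 to 1.63), and 1 of 12 alternatives called it, the fit without control library 3 (log2 fold change 1.30, adjusted p = 0.0327, range over the alternatives 0.0327 to 0.538).

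S100A3, a cysteine-rich zinc-binding protein of the hair cuticle, had 18, 27 and 13 counts in the STAT3 shRNA libraries and 23, 25 and 45 counts in the control libraries. In CPM these were 0.676, 1.326 and 0.709 against 1.342, 1.335 and 2.372, which touch without overlapping. The log2 fold change was -0.90 ± 0.397 (SE; edgeR adjusted p = 0.157), with a 95% interval of -1.80 to -0.01, and the adjusted p over the 12 alternatives was 0.0851 to 0.441. S100A3 lies within the annotated span of S100A4 on the same strand, without shared exon bases, so reads from unspliced S100A4 RNA cannot be told apart from its own. S100A14, a membrane-associated epithelial member, had 53, 39 and 22 counts in the STAT3 shRNA libraries and 27, 33 and 45 counts in the control libraries, which overlap. Its log2 fold change was -0.15 ± 0.301 (SE; edgeR adjusted p = 0.765), and 0.04 on dropping either STAT3 shRNA library 3 or control library 3. Its 95% interval of -0.83 to 0.53 leaves room for a change in either direction.

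**Figure D3:**
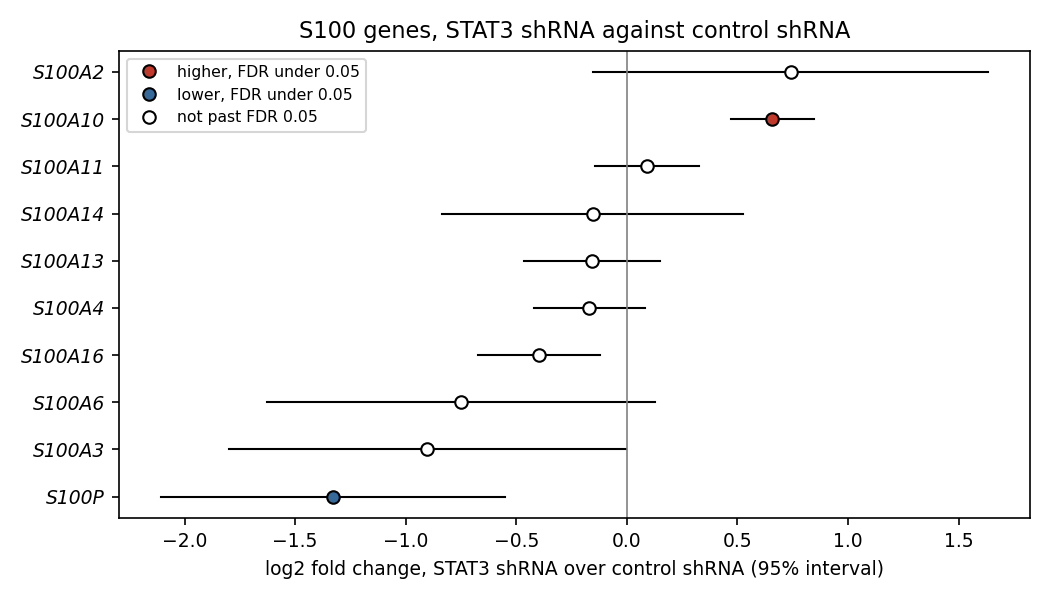
Log2 fold change of each S100 gene, STAT3 shRNA over control shRNA, with 95% intervals from the edgeR fit and filled points for FDR under 0.05. S100A10 (0.66) has a narrow interval above 0, S100P (-1.33) a wide one below 0, and the intervals of S100A2, S100A3 and S100A6 are of similar width to that of S100P.

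Levels between genes can be compared only per length. Divided by the longest GENCODE 29 basic transcript, S100A4 stood first in both groups, at 1015 ± 26.7 CPM per kb in STAT3 shRNA cells and 1141 ± 177 CPM per kb in control cells (SD, n = 3 each). In STAT3 shRNA cells S100A11 followed at 615 ± 51.1, then S100A6 at 385 ± 107 and S100A10 at 380 ± 9.97 CPM per kb, a pair that did not differ beyond its spread. In control cells S100A6 at 647 ± 275 and S100A11 at 577 ± 61.7 CPM per kb did not differ beyond their spread, and S100A10 lay below them at 241 ± 15.7 CPM per kb. S100A16 (138 ± 5.28 and 182 ± 31.7 CPM per kb in STAT3 shRNA and control cells), S100A13 (79.9 ± 2.94 and 89.0 ± 17.8) and S100P (23.8 ± 5.91 and 59.7 ± 25.0) came next. S100A2, S100A3 and S100A14 stayed under 4 CPM per kb, and S100A2 and S100A3 (3.63 ± 1.29 and 2.16 ± 1.21, 1.06 ± 0.427 and 1.97 ± 0.698 CPM per kb) did not differ beyond their spread in control cells. The place of S100A10 depends on its transcript: with the shortest basic form of 616 nucleotides in place of 1202 it had 742 ± 19.5 CPM per kb in STAT3 shRNA cells and 470.4 ± 30.5 in control cells, and in STAT3 shRNA cells it then stood above S100A11.

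The place of the genes on chromosome 1 was then set beside their changes. By RefSeq gene order the 9 protein-coding genes from S100A6 to S100A1 all belong to the family, while S100A10 and S100A11 lie apart from them, with 52 protein-coding genes between S100A11 and S100A6. Most of those 52 are skin-barrier genes, and S100A9, S100A12, S100A8, S100A7A and S100A7 are also among them, next to S100A6. None of the 52 was tested, and most had no row at all. S100A10 was the only called S100 gene of chromosome 1. From THEM4 to GATAD2B, which flank the region, 8 other genes were tested and 1 was called, beside 17.5% of all genes. This was NPR1, the receptor of atrial natriuretic peptide, which fell to 55.7, 66.2 and 57.3 CPM in the STAT3 shRNA libraries, against 115, 132 and 145 CPM in the control libraries (log2 fold change -1.13 ± 0.114, SE; edgeR adjusted p = 0.000219). The neighbours THEM4 (-0.18 ± 0.107), CHTOP (-0.15 ± 0.0977), SNAPIN (-0.03 ± 0.0949), ILF2 (0.08 ± 0.0786) and INTS3 (-0.13 ± 0.0873, all SE) did not pass the test, so the genes on either side of NPR1 and the pair beside S100A10 were not called.

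**Figure D4:**
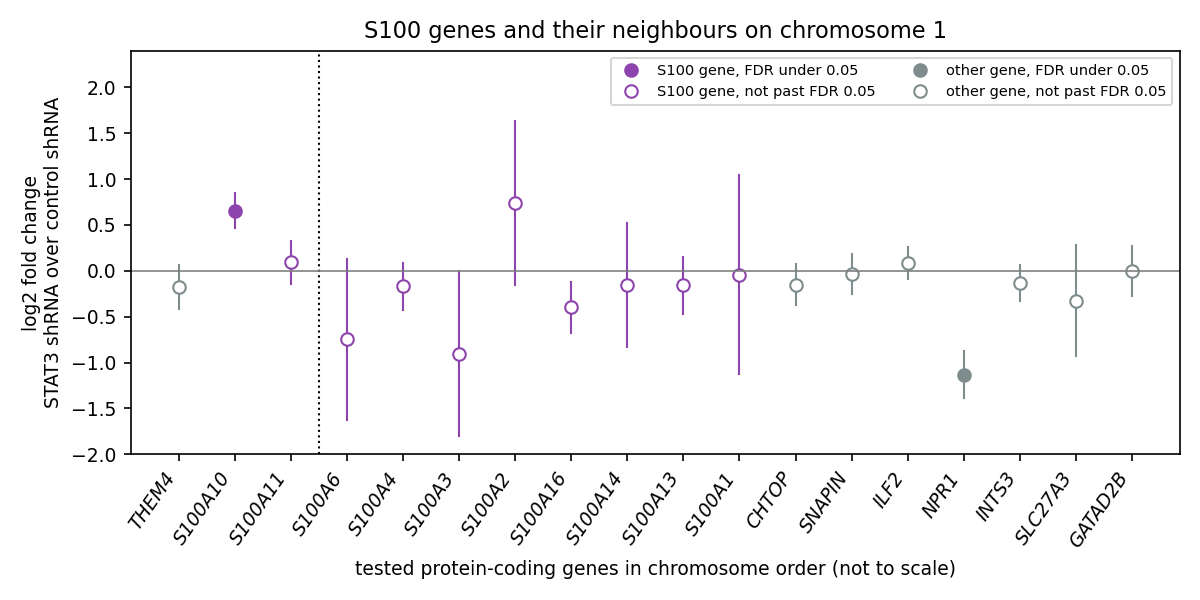
Log2 fold changes with 95% intervals for the 18 tested protein-coding genes from THEM4 to GATAD2B in chromosome order (distances not to scale), with S100 genes in purple, other genes in grey and filled points for FDR under 0.05. The dotted line marks the untested block of 52 genes, and S100A10 (0.66) and NPR1 (-1.13) are the filled points.

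Other S100 genes had low counts or no row. Of 11 further family genes looked for, 4 had a row and 1, S100A1, was tested. S100A1, a regulator of calcium handling in muscle, lay at 0.601, 1.13 and 0.436 CPM in STAT3 shRNA libraries and 0.525, 0.587 and 1.11 CPM in control libraries (log2 fold change -0.04 ± 0.482, SE; edgeR adjusted p = 0.966). S100A5 had at most 4 counts in a library. S100A9, which with S100A8 makes up the calprotectin of neutrophils, and S100Z had at most 1 count in any library. A count of 0 allows up to 3 counts, or 0.113 to 0.164 CPM in the STAT3 shRNA libraries and 0.158 to 0.175 CPM in the control libraries, which covers counting error only.

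Genes of proteins that S100 dimers bind were followed in a list of 42 partners and receptors. Of these, 38 had a row and 33 were tested. Among the 33, 4 rose and 4 fell, and the median log2 fold change was 0.06. The 8 of 33 called may be read beside the 17.5% of all genes. The partners that moved belong to different S100 proteins.

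Of the genes tied to S100A10, KCNK3 rose, PLAUR fell, and ANXA2, AHNAK, PLAT and PLAU did not pass the test. Annexin A2 (ANXA2), the partner in the S100A10 tetramer, had 1138, 1066 and 1130 CPM in the STAT3 shRNA libraries and 1057, 1040 and 1047 CPM in the control libraries, without overlap but not past the test (log2 fold change 0.09 ± 0.0756, SE; edgeR adjusted p = 0.483). Its 95% interval of -0.09 to 0.26 lay below that of S100A10. KCNK3, the TASK-1 potassium channel that S100A10 binds, rose to 10.97, 10.5 and 10.8 CPM in STAT3 shRNA libraries, against 7.82, 7.63 and 7.75 CPM in control libraries (0.48 ± 0.121; adjusted p = 0.0253), a call lost in 7 of 12 alternatives. PLAUR, the urokinase receptor of the plasminogen system, fell to 19.2, 15.1 and 17.2 CPM, against 39.3, 32.8 and 40.9 CPM in control libraries. Its log2 fold change was -1.13 ± 0.131 (edgeR adjusted p = 0.000449), and all 12 alternatives called it. Plasminogen itself (PLG) had at most 3 counts in a library.

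Among partners of S100A4, S100A6, S100P and other S100 proteins, MYH9 rose, CALD1, STIP1 and FKBP4 fell, and CACYBP, S100PBP and EZR did not pass the test. MYH9, the non-muscle myosin heavy chain bound by S100A4, rose to 1116, 1223 and 972 CPM in STAT3 shRNA libraries, against 824, 888 and 809 CPM in control libraries (0.39 ± 0.101; adjusted p = 0.0261), and the call was lost in 3 of 12 alternatives. CACYBP, the partner of S100A6, had a log2 fold change of -0.15 ± 0.0815 (adjusted p = 0.235). S100PBP, a nuclear binder of S100P, had 0.21 ± 0.131 (adjusted p = 0.303), and ezrin (EZR), the membrane linker that S100P activates, had -0.24 ± 0.0797 (adjusted p = 0.0695). Caldesmon (CALD1), an actin binder, fell by 0.31 ± 0.0777 on the log2 scale, and the co-chaperones STIP1 and FKBP4, which several S100 proteins bind, fell by 0.31 ± 0.0816 and 0.44 ± 0.116 (adjusted p = 0.0235, 0.0288 and 0.0299), with the calls lost in 5, 6 and 5 of 12 alternatives.

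Of the receptors of released S100 proteins in the list, TLR4 rose, while AGER, BSG, ALCAM and CD36 did not pass the test. Differences between TLR4 and the other receptors were not tested. TLR4, the innate immune receptor best known for bacterial lipopolysaccharide, is also a receptor of calprotectin. It rose to 72, 38 and 41 counts in STAT3 shRNA libraries, against 7, 3 and 7 counts in control libraries. In CPM this was 2.71, 1.87 and 2.24 against 0.408, 0.160 and 0.369 (log2 fold change 2.85 ± 0.393, SE; edgeR adjusted p = 0.00115). AGER, which encodes RAGE, had 20, 11 and 20 counts in STAT3 shRNA libraries and 19, 14 and 30 in control libraries. Its log2 fold change was -0.54 ± 0.412 (edgeR adjusted p = 0.414). BSG averaged 895 and 1064 CPM in STAT3 shRNA and control libraries (-0.25 ± 0.123; adjusted p = 0.204). ALCAM averaged 120 and 111 CPM (0.10 ± 0.127; adjusted p = 0.614), and CD36 0.746 and 0.243 CPM (1.62 ± 0.587; adjusted p = 0.0921). Markers of leukocytes, which carry TLR4, summed to 20.9 to 28.2 CPM in STAT3 shRNA libraries and 11.3 to 16.5 CPM in control libraries, and 4 of 6 had a row. Nearly all of that sum was CD68, a lysosomal protein, which rose. CD14, LYZ and CSF1R had at most 5, 10 and 13 counts in a library, and the part of such cells in the TLR4 value was not tested.

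**Figure D5:**
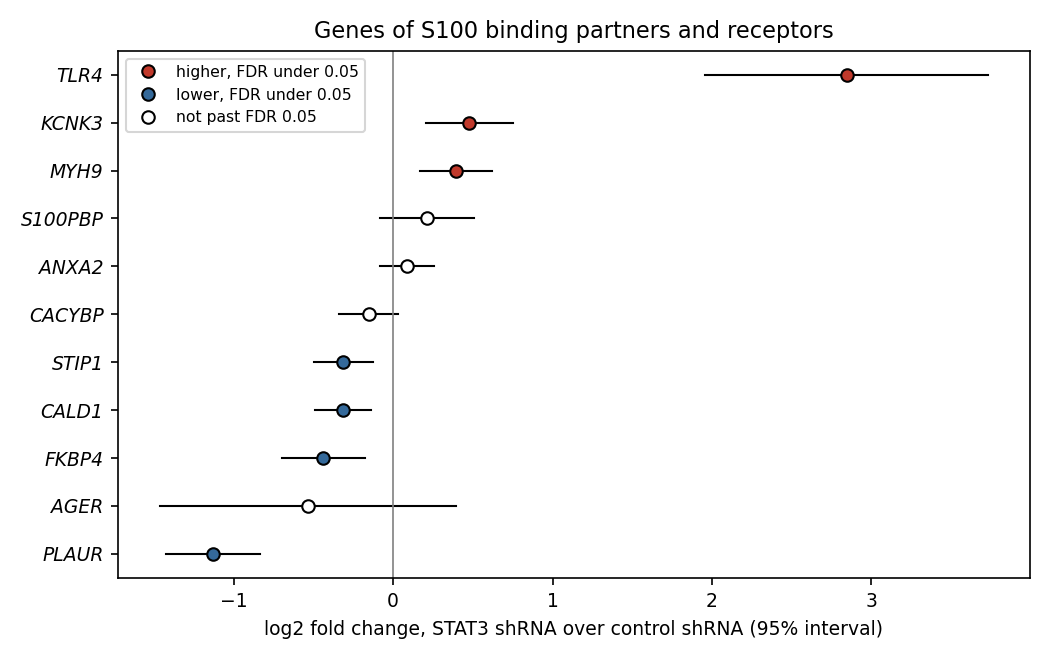
Log2 fold change with 95% interval for the partner and receptor genes named in the text by the naming rule, STAT3 shRNA over control shRNA, filled where FDR is under 0.05. TLR4 (2.85) and PLAUR (-1.13) lie farthest from 0, and ANXA2, S100PBP, CACYBP and AGER have intervals that include 0.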

How the data were processed

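The deposited table held whole-number counts per gene for 6 libraries, with no normalization in the values, per the file headers and the differing totals. Which aligner, counter, library kit, strand setting, build and annotation were used is not given in the sources used here. Of 27452 rows, 26420 carried an Ensembl identifier, and 1032 were running numbers of the submitters. Groups came from the titles.

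Tests were run on these counts with edgeR 4.0.16 under R 4.3.3: filterByExpr (minimum count 10, minimum total 15) kept 14999 genes, scaling was by TMM, and the model held group only, with robust quasi-likelihood F tests, two-sided, and Benjamini-Hochberg adjustment over all 14999 genes. SE is the log2 fold change divided by the square root of F, and 95% intervals use its degrees of freedom. The alternatives were other scalings, DESeq2 1.42.0, no filter, a replicate block and leaving out each library. Libraries of a group differed by 4.20 to 43.0 chi-square units per degree of freedom, more than counting error alone gives. This measure cannot tell separate cultures from separate preparations of the same culture.

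The members and lists were chosen with earlier results of these data known. The named genes were STAT3, the S100 genes, and of the partner list all called genes, if 8 or fewer, with ANXA2, CACYBP, S100PBP, MYH9 and AGER. Some genes of these lists are counted but not reported here. EZR, AHNAK, PLAT, PLAU, BSG, ALCAM, CD36, flanking genes not called, marker genes and partners with few counts were named after their values were seen. Lengths came from GENCODE 29 by identifier without version (10 of 10 members matched, 2 with the same version), and gene order and promoters from RefSeq (GRCh38.p14). As the build of the table is not named, the only coordinates given are those of the RefSeq promoter windows.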

Additional observations from a re-analysis of the deposited data

How the results depend on the processing

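S100A10 was called higher, and STAT3, PLAUR and TLR4 kept their calls, in all 12 alternatives. The count of S100 genes called lower was 1 with all 6 libraries and became 2 with DESeq2 and 2 with the replicate block, S100A16 joining S100P. With no filter on low counts it stayed at 1, but the gene called was S100A16 (edgeR adjusted p = 0.0149) and not S100P (0.170). Leaving out each library in turn gave 0 to 2 lower and 1 to 2 higher, the second higher gene being S100A2 without control library 3. The S100P call was lost in 5 of 12 alternatives. The log2 fold change of S100A13 ran from -0.25 to 0.02 and that of S100A14 from -0.29 to 0.04 when a library was left out, so neither has a settled direction. The S100A13 value was 0.0227 and the S100A14 value 0.0423 without control library 3, and S100A14 was also positive without STAT3 shRNA library 3. Over all genes the count of 2627 ranged from 1462 to 4098 on leaving out a library, the higher count from 796 to 2068 and the lower from 666 to 2030. It was 1462 without STAT3 shRNA library 1, 1475 without STAT3 shRNA library 3, 4098 without control library 1 and 1527 without control library 2. With library totals 68.7% of calls were higher, against 53.6% with TMM. Among values for single genes under the alternatives, 231 kept direction and call, 37 lost a call, 5 gained one and 3 changed sign. The cause of these differences was not tested.

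Deviations from the group means correlated across genes at 0.28, 0.19 and -0.23 between same-numbered libraries 1, 2 and 3, and at up to 0.33 between libraries of different numbers (STAT3 shRNA library 2 and control library 3). As not every same-numbered pair was positive, the numbers were not taken to pair the libraries. The fit with the replicate block called 2278 genes. Low counts limit S100A2, S100A3 and S100A14.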
